A study of Mus musculus with 9 samples.

Results

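Hmgcs1, Idi1, Fdft1, Sqle, Lss, Cyp51, Insig1 and Srebf2 are 8 genes of cholesterol synthesis and of its control. They were chosen with earlier results of these data known. They were taken by symbol from the 23944 genes that the deposited tables hold. All 8 passed the filter on low counts, as did 15834 genes in all. The RNA came from whole left lungs of adult wild-type mice. Naive lungs were from C57BL/6 mice that received no transplant (n = 3). Cold-ischemia grafts came from C57BL/6 donors, spent 24 h in storage at 0 °C, and were taken out 2 h after the start of reperfusion in a Balb/C recipient (n = 3). Shock grafts went through the same storage, transplantation and reperfusion, but their donors had first undergone 4 h of hypovolemic shock at a mean arterial pressure of 15 ± 5 mmHg and 20 h of recovery (n = 3). A graft therefore holds donor lung cells and whatever recipient blood cells entered it. The group names do not say whether each library is a separate animal, so the tests measure the spread between these libraries.

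Libraries held 18913487 to 34986276 counted reads. Levels are given as CPM, the counts of a gene as a share of a fixed total of counts, after TMM scaling, and a gene passed the test when edgeR's adjusted p, over all 15834 genes, was under 0.05. The sample titles and the deposited tables disagree on 2 graft libraries. Cold-ischemia replicate 2 stands among the shock grafts in the tables, and shock replicate 3 among the cold-ischemia grafts. The titles were followed here, and values that turn on this choice are also given for the tables' grouping and without both libraries. The naive libraries carry record numbers of another study in their labels, so that study or batch and the naive group cannot be told apart. On the first principal component of all tested genes, naive lungs lay between -95.1 and -85.1 and grafts between 23.5 and 70.0. Sftpc and Ager, which mark alveolar type 2 and type 1 cells, were high in every library, at no less than 7996 and 1027 CPM.

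Cells build cholesterol from acetyl-CoA by way of mevalonate, isopentenyl diphosphate, farnesyl diphosphate and squalene. The transcription factor SREBP-2, encoded by Srebf2, turns on the genes of this route when membrane sterols are low. When sterols are plentiful, INSIG proteins hold SREBP-2 and its escort SCAP in the endoplasmic reticulum. Insig1 is itself a target of SREBP. In lung, alveolar type 2 cells need cholesterol for surfactant.

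Promoter sequence was looked at because these genes share a known regulator and moved together in the grafts. RefSeq promoters of the mouse build GRCm38.p6, from 250 bases before to 50 bases after the start, matched 6 of the 8 genes, namely Hmgcs1, Idi1, Lss, Cyp51, Insig1 and Srebf2. Shown are the window of Hmgcs1, which holds the 1 match to a sterol regulatory element, that of Cyp51, the gene with the largest change of the 8, and that of Insig1, the gene with the smallest, both over all grafts. Each runs 5′ to 3′ on the strand of its gene. Capitals mark matches to the sterol regulatory element TCACNCCAC and to the CCAAT box, which is ATTGG on the other strand.
Hmgcs1, chr13:119690101-119690400, plus strand: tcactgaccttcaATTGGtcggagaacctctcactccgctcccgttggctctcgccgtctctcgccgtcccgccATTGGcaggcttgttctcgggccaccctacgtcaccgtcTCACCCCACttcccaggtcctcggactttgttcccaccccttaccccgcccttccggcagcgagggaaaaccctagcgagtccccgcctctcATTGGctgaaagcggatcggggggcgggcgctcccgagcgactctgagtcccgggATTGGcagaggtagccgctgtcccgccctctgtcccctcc
Cyp51, chr5:4104648-4104947, minus strand: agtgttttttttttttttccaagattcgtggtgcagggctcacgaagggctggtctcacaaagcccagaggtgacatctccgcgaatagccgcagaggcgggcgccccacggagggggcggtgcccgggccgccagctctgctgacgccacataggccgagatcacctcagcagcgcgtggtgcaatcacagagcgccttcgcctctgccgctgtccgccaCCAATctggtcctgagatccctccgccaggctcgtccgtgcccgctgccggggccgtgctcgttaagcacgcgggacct
Insig1, chr5:28071162-28071461, plus strand: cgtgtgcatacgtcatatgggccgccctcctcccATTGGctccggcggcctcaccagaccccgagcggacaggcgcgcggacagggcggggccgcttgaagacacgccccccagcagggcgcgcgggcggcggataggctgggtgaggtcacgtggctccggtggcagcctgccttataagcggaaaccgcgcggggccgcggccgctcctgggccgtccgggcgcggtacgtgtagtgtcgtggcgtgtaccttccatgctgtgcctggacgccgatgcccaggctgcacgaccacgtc

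Both strands were searched for 4 motifs in these windows and in all 32851 promoters of the table. TCACNCCAC occurred in 1.24% of all promoters and in 1 of the 6, Hmgcs1, where it lies 137 bases before the start. CCAAT occurred in 37.4% of all promoters and in 6 of the 6, with 4 matches in Hmgcs1. GGGCGG, the GC box, occurred in 35.7% of all promoters and in 6 of the 6. CACGTG, an E-box that reads the same on both strands, occurred in 7.15% of all promoters and in 1 of the 6, Insig1. These are matches of letters within short windows and not binding sites. Only the patterns as written were searched. A promoter without a match may still hold an element in a variant form or outside the window.

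The first comparison asked how the genes stood in transplanted lungs against naive lungs. All 8 were higher in the 6 grafts, with mean levels 1.63 to 2.92 times those of naive lungs. Against a background of 40.8% of tested genes called, 22.1% higher and 18.7% lower, 8 of 8 were called higher. Because the 8 were chosen with earlier results of these data known, their counts here and by graft group describe them and are no independent test. The median log2 fold change of the 8 was 0.96, beside -0.045 over all tested genes. Every graft lay above every naive lung for 7 of the 8, where the background is 20.9% of tested genes, and Insig1 was the exception. None had every graft below every naive lung, where the background is 20%.

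**Figure D1:**
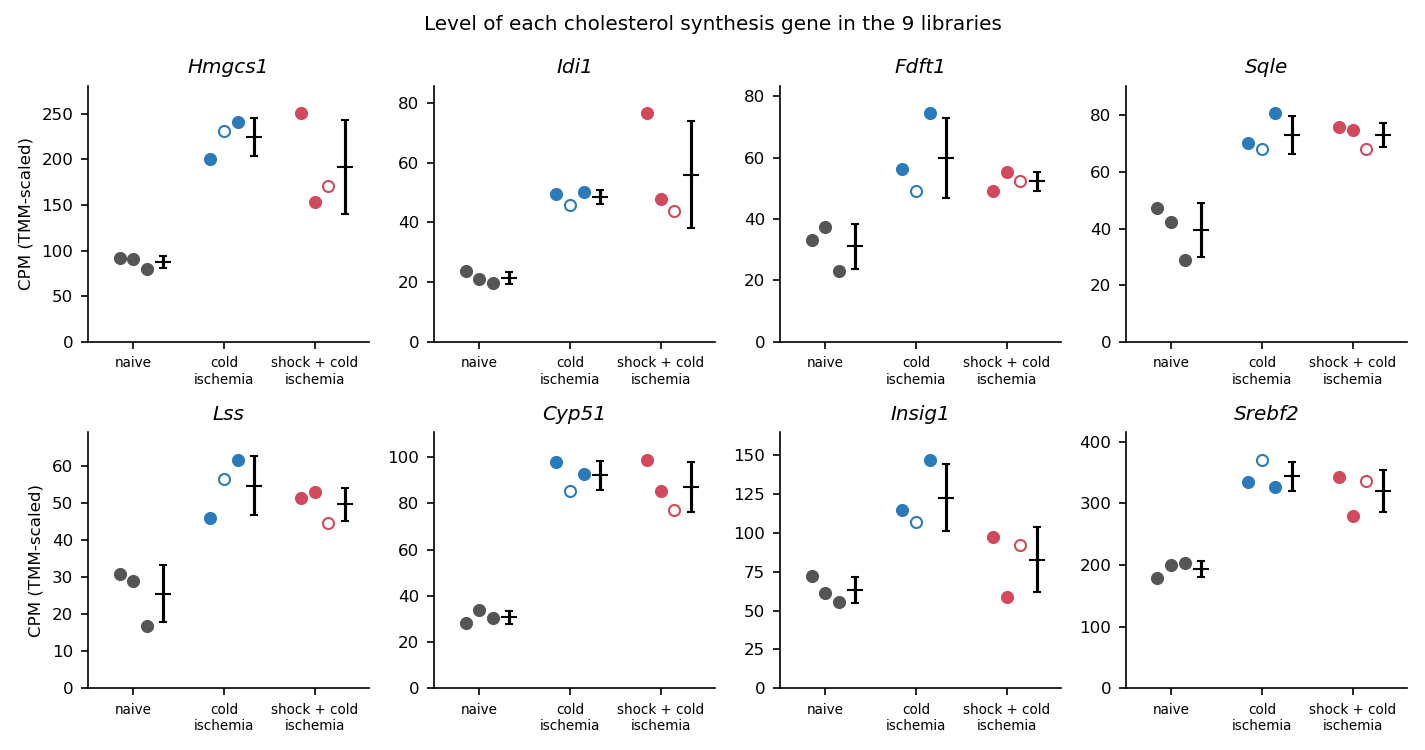
Level of each of the 8 genes in CPM after TMM scaling (vertical axes from 0) in naive lungs, cold-ischemia grafts and shock grafts. Each point is 1 library, open points are the 2 libraries whose group the titles and tables give differently, and bars are the mean ± SD of 3. Grafts lie above all naive lungs in every panel but that of Insig1, where shock replicate 2 lies at 59.0 CPM among the naive lungs.

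Hmgcs1 (chr13:119690462-119708086, mm10) encodes cytosolic HMG-CoA synthase, which makes the precursor of mevalonate. Its level was 91.7, 90.6 and 79.5 CPM in naive replicates 1 to 3, 201, 231 and 241 CPM in the cold-ischemia grafts, and 250.4, 153 and 171 CPM in the shock grafts. The lowest graft was still well above the highest naive lung, and the shock grafts were spread more widely than the cold-ischemia grafts, with an SD of 51.7 against 20.7 CPM. The log2 fold change in all grafts was 1.25 ± 0.17 (SE, adjusted p = 0.000178). It was 1.36 ± 0.19 in cold-ischemia grafts (adjusted p = 0.000375) and 1.14 ± 0.19 in shock grafts (adjusted p = 0.000853).

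Idi1 (chr13:8885501-8892451) encodes isopentenyl-diphosphate isomerase, which prepares the building block for farnesyl diphosphate. The naive lungs had 23.7, 20.9 and 19.8 CPM, the cold-ischemia grafts 49.4, 46.0 and 50.2 CPM, and the shock grafts 76.5, 47.7 and 43.9 CPM. Shock replicate 1 stood apart above the other 5 grafts, which lay within a narrow band. Idi1 rose by a log2 fold change of 1.28 ± 0.19 in all grafts (adjusted p = 0.000245), with 1.18 ± 0.20 in cold-ischemia grafts (adjusted p = 0.00154) and 1.38 ± 0.20 in shock grafts (adjusted p = 0.000451).

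Fdft1 (chr14:63145153-63177793) encodes squalene synthase, the first enzyme committed to sterols. Counts gave 33.1, 37.4 and 23.1 CPM in naive lungs, 56.3, 49.0 and 74.4 CPM in cold-ischemia grafts, and 49.1, 55.3 and 52.5 CPM in shock grafts. The groups did not overlap with naive lungs, and cold-ischemia replicate 3 was the highest of the grafts. The log2 fold change in all grafts was 0.85 ± 0.18 (adjusted p = 0.0032). It was 0.94 ± 0.20 in cold-ischemia grafts (adjusted p = 0.00553) and 0.75 ± 0.20 in shock grafts (adjusted p = 0.0142). The call in shock grafts was lost under upper-quartile scaling (0.52, adjusted p = 0.0667) and under total-count scaling (0.40, adjusted p = 0.138). Fdft1 shares 767 bases with Ctsb, the cathepsin B gene on the other strand, which had 438 ± 14.3 CPM in naive lungs and 664 ± 59.6 CPM in grafts (SD, n = 3 and 6). No source used here says whether counting used strand, so reads of the shared stretch cannot be told apart and the value of Fdft1 is uncertain to that extent.

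Sqle (chr15:59315077-59331192) encodes squalene epoxidase, the first oxygenation step of the sterol route. It was measured at 47.4, 42.4 and 29.0 CPM in naive lungs, 70.2, 68.0 and 80.7 CPM in cold-ischemia grafts, and 76.0, 74.9 and 68.1 CPM in shock grafts. The 6 grafts were the most alike for this gene, with the highest only 1.19 times the lowest, while the naive lungs differed by 1.64 times. Sqle rose by 0.88 ± 0.15 on the log2 scale in all grafts (adjusted p = 0.000818), and by 0.88 ± 0.18 in each graft group (adjusted p = 0.00372 in cold-ischemia and 0.00283 in shock grafts).

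Lss (chr10:76531588-76557138) encodes lanosterol synthase, which closes the sterol rings. Naive lungs had 30.9, 28.9 and 16.7 CPM, cold-ischemia grafts 45.9, 56.3 and 61.5 CPM, and shock grafts 51.2, 52.9 and 44.5 CPM. All grafts were above all naive lungs, and naive replicate 3 was well below the other naive lungs. The log2 fold change was 1.03 ± 0.20 in all grafts (adjusted p = 0.00141), 1.10 ± 0.22 in cold-ischemia grafts (adjusted p = 0.00372) and 0.96 ± 0.22 in shock grafts (adjusted p = 0.00599). An annotated antisense gene overlaps Lss and held 0 to 4 reads a library.

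Cyp51 (chr5:4081145-4104746), whose promoter is printed above, encodes lanosterol 14-alpha-demethylase, the cytochrome P450 that acts right after Lss. Levels were 28.04, 33.7 and 30.2 CPM in naive lungs, 98.0, 85.3 and 92.8 CPM in cold-ischemia grafts, and 98.8, 85.4 and 77.3 CPM in shock grafts. Replicates lay close together in each group and the gap to the naive lungs was wide. Cyp51 had the largest change of the 8, 1.55 ± 0.12 on the log2 scale in all grafts (adjusted p = 3.83e-06). The change was 1.59 ± 0.14 in cold-ischemia grafts (adjusted p = 1.93e-05) and 1.51 ± 0.14 in shock grafts (adjusted p = 2.21e-05).

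Srebf2 (chr15:82147266-82205376) encodes SREBP-2 itself. Its counts came to 179, 199 and 203 CPM in naive lungs, 335, 370.4 and 326 CPM in cold-ischemia grafts, and 343, 280 and 336 CPM in shock grafts. Grafts and naive lungs did not overlap, and shock replicate 2 was the lowest graft. Srebf2 rose by 0.78 ± 0.12 on the log2 scale in all grafts (adjusted p = 0.000394), by 0.83 ± 0.14 in cold-ischemia grafts (adjusted p = 0.00123) and by 0.72 ± 0.14 in shock grafts (adjusted p = 0.0021). The transcript level does not tell how much of the protein is cleaved to its active form.

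Insig1 (chr5:28071363-28078662) encodes the sterol-dependent brake on SREBP-2. It stood at 72.5, 61.6 and 55.8 CPM in naive lungs, 115, 106.8 and 147 CPM in cold-ischemia grafts, and 97.3, 59.0 and 92.3 CPM in shock grafts. Cold-ischemia grafts were all above naive lungs, whereas shock replicate 2 fell below 2 of the 3 naive lungs. Insig1 rose in cold-ischemia grafts, by 0.96 ± 0.21 on the log2 scale (adjusted p = 0.00533). The change in shock grafts was 0.39 ± 0.20 and did not pass (adjusted p = 0.152), and without shock replicate 2 it was 0.58 (adjusted p = 0.0223). Over all grafts the change of 0.70 ± 0.23 passed with little room (adjusted p = 0.0296). That call was lost without naive replicate 1, 2 or 3 (adjusted p = 0.0502, 0.0961 and 0.112), without cold-ischemia replicate 1 (adjusted p = 0.0531) and without both disputed libraries (adjusted p = 0.0636). It was also lost under upper-quartile scaling (0.50, adjusted p = 0.104) and total-count scaling (0.38, adjusted p = 0.193).

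Within each graft group, 8 of 8 genes were called higher in cold-ischemia grafts, where 17.5% of tested genes were called higher, 13.1% lower and 30.6% either way. In shock grafts, 7 of 8 were called higher, where 22% were called higher, 17.9% lower and 39.9% either way. The naive lungs are common to both comparisons. The median log2 fold change of the 8 was 1.03 in cold-ischemia and 0.92 in shock grafts, beside -0.04 and -0.058 over all tested genes. Scaling moved both medians together. Under total-count scaling the median of the 8 in all grafts was 0.63 and that of all genes -0.367. The distance between them was 1.00 under TMM, 1.00 under upper-quartile and 1.00 under total-count scaling. A change of scaling shifts the fold changes of all genes nearly alike, so this distance is kept by construction and is no separate support.

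**Figure D2:**
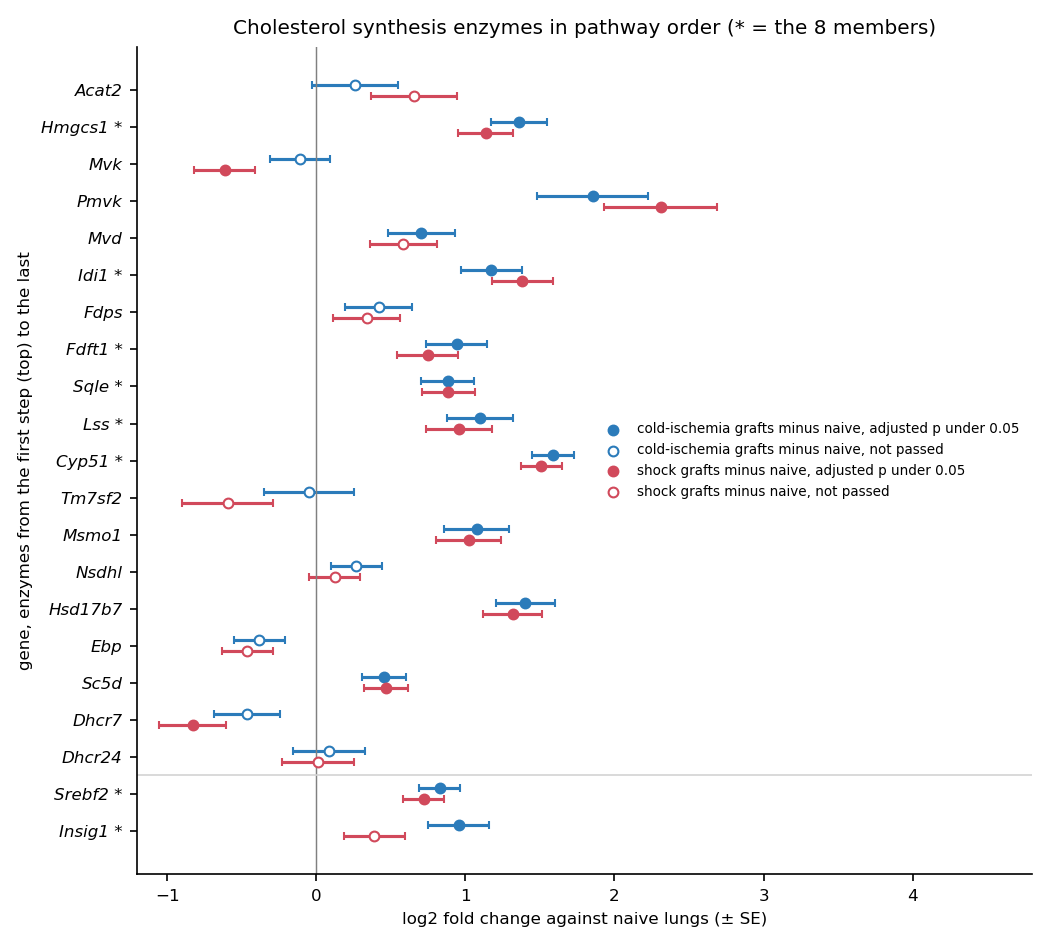
Log2 fold change against naive lungs (horizontal axis, ± SE) of listed cholesterol synthesis enzymes from the first step at the top to the last, with Srebf2 and Insig1 below the line; stars mark the 8 genes, blue is cold-ischemia and red is shock grafts (n = 3 each), and filled points passed. Cyp51 stands at 1.59 and 1.51, while some late enzymes such as Dhcr7 lie below 0.

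Levels between genes were compared per length, with the deposited FPKM. In naive lungs Srebf2 was highest at 45.1 ± 2.29 FPKM (SD, n = 3), then Hmgcs1 at 31.3 ± 3.11 and Insig1 at 27.3 ± 4.22, which lie within their spread of each other. Fdft1 at 12.7 ± 3.20, Sqle at 10.3 ± 2.69, Cyp51 at 9.04 ± 0.85 and Idi1 at 8.24 ± 0.94 FPKM overlapped in the same way. Lss was lowest at 4.25 ± 1.35 FPKM. In grafts Srebf2 at 61.7 ± 6.01 and Hmgcs1 at 59.7 ± 11.7 FPKM (n = 6) lay within their spread. Cyp51 at 21.1 ± 1.83, Fdft1 at 18.3 ± 3.49 and Idi1 at 16.0 ± 3.41 FPKM overlapped, with Fdft1 above Cyp51 in cold-ischemia replicate 3 and Idi1 above Cyp51 in shock replicate 1. Cyp51 was above Sqle, at 15.2 ± 1.22 FPKM, in all 6 grafts. FPKM were scaled to library totals, so graft-to-naive ratios of FPKM are smaller than those of TMM-scaled CPM.

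The libraries did not vary in the same way for each gene. Naive replicate 3 was the lowest naive lung for 6 of the 8, all but Cyp51 and Srebf2. Cold-ischemia replicate 3 was the highest graft for 4, Fdft1, Sqle, Lss and Insig1, and shock replicate 1 for 3, Hmgcs1, Idi1 and Cyp51. Shock replicate 2 was the lowest graft for Hmgcs1, Insig1 and Srebf2. Among grafts the highest library was 2.49 times the lowest for Insig1 and 1.74 times for Idi1. Measured as the root mean square distance between log2 CPM profiles over 9 libraries, each centred on its mean, Sqle and Lss were the closest pair at 0.139. Fdft1 and Sqle followed at 0.152, and Cyp51 and Insig1 were farthest apart at 0.532. Among the 8, Fdft1, Sqle and Lss thus had the most similar profiles. Sqle lay nearer still to Hnrnpd, a gene outside the lists, at 0.095. Fdft1, Sqle and Lss shared a dip in naive replicate 3. Their centred values there were -0.98, -1.02 and -1.27, against -0.28 to -0.48 in naive replicates 1 and 2.

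**Figure D3:**
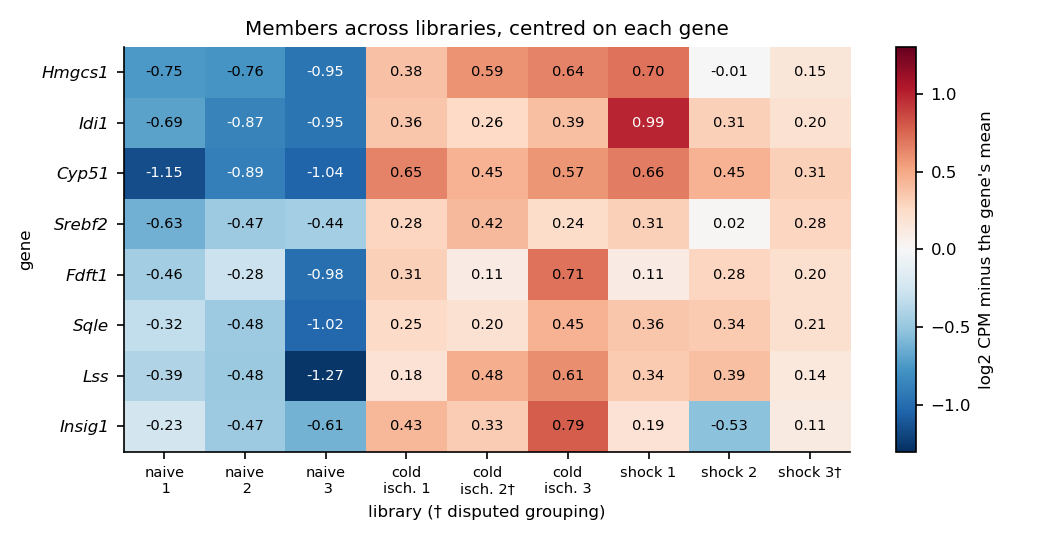
Log2 CPM of the 8 genes (rows) in the 9 libraries (columns), each minus the mean of its gene, from blue (below) to red (above); the dagger marks the libraries of disputed grouping. Naive lungs are below the mean for every gene, and shock replicate 2 lies at -0.53 for Insig1 but at 0.28 to 0.45 for Idi1, Cyp51, Fdft1, Sqle and Lss.

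The same distance was taken from the mean profile of the 8 to all 15826 other tested genes. The nearest were Gla, the lysosomal alpha-galactosidase, at 0.071, Sytl1 and Cd6 at 0.091, F2rl1 at 0.094 and Mtmr12 at 0.106. Msmo1, an enzyme of sterol demethylation, was the 13th nearest at 0.147. The nearest gene to Hmgcs1 was Prkab1 (0.131), to Idi1 Ptprc (0.133), to Fdft1 Prrg4 (0.136) and to Sqle Hnrnpd (0.095). For Cyp51 it was Metrnl (0.095), for Insig1 Ccr7 (0.155) and for Lss it was Sqle (0.139). All of these profiles step up from naive lungs to grafts, as those of many genes do.

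The second comparison set shock grafts against cold-ischemia grafts, whose labels differ in donor shock and recovery. None of the 8 genes passed, and edgeR called 0% of the 15834 tested genes (0 genes, with 1152 at an unadjusted p under 0.05). DESeq2 called 8 genes, 0.0505% of those tested. The log2 difference, shock minus cold-ischemia, was -0.23 for Hmgcs1 (95% interval -0.63 to 0.18) and 0.21 for Idi1 (-0.23 to 0.65). It was -0.20 for Fdft1 (-0.64 to 0.25), 0.001 for Sqle (-0.39 to 0.39) and -0.14 for Lss (-0.62 to 0.34). Cyp51 differed by -0.079 (-0.38 to 0.22) and Srebf2 by -0.11 (-0.41 to 0.20). These intervals all include 0 and do not show that the groups were alike.

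Insig1 was the 1 gene of the 8 whose graft groups did not overlap, with every shock graft below every cold-ischemia graft, as in 4.91% of all tested genes; 5.45% had every shock graft above. Its log2 difference was -0.57 (95% interval -1.02 to -0.12, unadjusted p = 0.0186) and did not pass over all genes (adjusted p = 0.671). Under the tables' grouping the graft groups overlapped for Insig1. Cold-ischemia replicate 2, a shock graft there, had 106.8 CPM, and shock replicate 3, a cold-ischemia graft there, 92.3 CPM. The difference was then -0.43 (adjusted p = 0.331), and without both disputed libraries it was -0.74 (adjusted p = 0.171). edgeR called 124 genes, 0.783% of those tested, under the tables' grouping, and 39 genes, 0.243%, without both libraries. None of the 8 was among either. The signs of Hmgcs1, Lss and Cyp51 turned under the tables' grouping, to 0.052, 0.078 and 0.008.

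**Figure D4:**
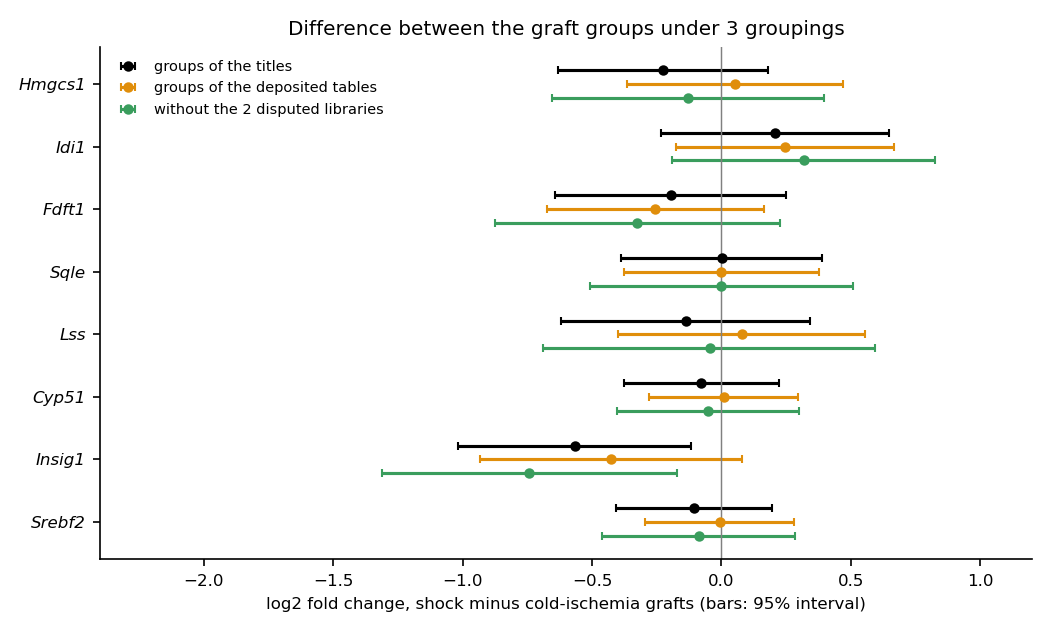
Log2 fold change of the 8 genes, shock minus cold-ischemia grafts (horizontal axis), with 95% intervals, by the groups of the titles (black), those of the deposited tables (orange) and without the 2 disputed libraries (green). Intervals include 0 for all genes but Insig1, where those of the titles (-1.02 to -0.12) and without the disputed libraries (-1.31 to -0.17) lie below 0.

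The authors' deposited table of cold-ischemia grafts, which uses the other grouping, lists log2 fold changes of 1.54 for Cyp51 and 0.894 for Insig1. The authors' deposited table of shock grafts lists 1.58 for Cyp51 and 0.505 for Insig1, the last with an adjusted p of 0.0994.

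Other genes of the route were read from lists of named enzymes and regulators. Over all tested genes, 22.1% were called higher and 18.7% lower in all grafts, the background for the list counts that follow. Counts near these shares do not set a list apart from other genes. Of 13 other cholesterol synthesis enzymes, 5 were called higher, 2 lower and 6 neither in all grafts, with a median log2 fold change of 0.38. The mevalonate enzyme Pmvk rose by 2.10 ± 0.36 (adjusted p = 0.000735), with shock replicate 2 at 214 CPM against 69.1 to 120 CPM in the other grafts. Hsd17b7 rose by 1.36 ± 0.18 (adjusted p = 0.00011) and Msmo1 by 1.05 ± 0.19 (adjusted p = 0.00104), both of which act on sterol intermediates after Cyp51. Sc5d, a later desaturase, rose by 0.46 ± 0.13 (adjusted p = 0.0125), a call lost under upper-quartile and total-count scaling and without naive replicate 3 (adjusted p = 0.124, 0.394 and 0.0652). Dhcr7, a sterol reductase late in the route, fell by 0.64 on the log2 scale (adjusted p = 0.0261), and Ebp, a sterol isomerase, fell by 0.42 (adjusted p = 0.0335). The call of Dhcr7 held in 12 of 16 alternatives and was lost without any 1 of the naive replicates (adjusted p = 0.0511, 0.116 and 0.0568) and without both disputed libraries (adjusted p = 0.0817). That of Ebp held in 11 of 16 and was lost without naive replicate 1 or 2 or cold-ischemia replicate 2 (adjusted p = 0.0757, 0.166 and 0.0597), without both disputed libraries (0.0724) and with the replicate block (0.061).

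Of 8 genes for SREBP transport, cleavage and INSIG-linked degradation, 1 was called higher, 2 lower and 5 neither, with a median of -0.12. Mbtps1, the protease that makes the first cut in SREBP, fell by 0.64 (adjusted p = 0.00372), from 184 ± 9.59 CPM in naive lungs to 84.8 to 138 CPM in grafts. Mbtps2, the protease of the next cut, had -0.38 ± 0.15 and did not pass (adjusted p = 0.062), but was called lower under upper-quartile and total-count scaling and without cold-ischemia replicate 2 (adjusted p = 0.00919, 0.00338 and 0.0371). Erlin2 fell by 0.47 (adjusted p = 0.0258), a call lost without naive replicate 2 or 3 (adjusted p = 0.0897 and 0.0952). Rnf139, a ubiquitin ligase of the endoplasmic reticulum, rose by 0.36 ± 0.13 (adjusted p = 0.0361), a call that held in 5 of 16 alternatives. Srebf1, Insig2 and Scap, named after their values were seen, had -0.019, -0.19 and -0.044 (adjusted p = 0.92, 0.207 and 0.787). Total-count scaling called these 3 lower, and upper-quartile scaling called Insig2 lower (-0.40, adjusted p = 0.0133).

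Among 8 genes of lipoprotein uptake and lysosomal cholesterol release, 1 was called lower and none higher, with a median of 0.027. Vldlr, a lipoprotein receptor gene, fell by 0.69 (adjusted p = 0.0277), a call that held in 11 of 16 alternatives and was lost without any 1 of the naive replicates, cold-ischemia replicate 1 or shock replicate 1 (adjusted p = 0.0512 to 0.0888). Stard4, a carrier of cholesterol between membranes, had 0.49 and did not pass (adjusted p = 0.122). It was called higher in cold-ischemia grafts (0.73, adjusted p = 0.0369) and, without shock replicate 2, in all grafts (0.62, adjusted p = 0.0077). Stard4 was the third nearest gene to Insig1 in profile, at 0.165. Npc1, which exports cholesterol from the lysosome, had 0.29 (adjusted p = 0.144), with -0.0267 under total-count scaling, and Mylip, a ubiquitin ligase induced by LXR, had 0.37 (adjusted p = 0.152), or 0.66 (adjusted p = 0.0193) without naive replicate 1.

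Of 9 genes of cholesterol efflux, LXR signalling and oxysterols, 2 were called higher and none lower, with a median of -0.17. Ch25h, which makes 25-hydroxycholesterol, an oxysterol that blocks SREBP processing, had 2.80, 2.71 and 2.40 CPM in naive lungs. It had 126, 72.1 and 76.3 CPM in cold-ischemia grafts and 65.7, 97.3 and 80.7 CPM in shock grafts. Its change of 5.03 ± 0.26 (adjusted p = 2.45e-07) was the largest value in the lists of pathway genes. Nr1h2, the LXR-beta gene, rose by 0.39 ± 0.12 (adjusted p = 0.0214). Its call held in 11 of 16 alternatives and was lost under upper-quartile and total-count scaling (adjusted p = 0.215 and 0.662) and without any 1 of the naive replicates (adjusted p = 0.0888, 0.0637 and 0.0651). The efflux pump gene Abcg1 had -0.52 (adjusted p = 0.0565) and Cyp7b1, which clears oxysterols, 0.56 (adjusted p = 0.0619), and neither passed. Abcg1 was called lower in 7 of 16 alternatives, under upper-quartile and total-count scaling (adjusted p = 0.0102 and 0.00395), with no filter and with the replicate block (0.0497 in both), and without cold-ischemia replicate 2, shock replicate 1 or shock replicate 2 (0.0493, 0.0336 and 0.035). Cyp7b1 was called higher in 3 of 16, with DESeq2 (adjusted p = 0.0298) and without cold-ischemia replicate 3 or shock replicate 3 (0.0494 and 0.0441).

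Of 10 genes of fatty acid synthesis and desaturation, 2 were called higher and none lower, with a median of 0.092. Elovl6, a fatty acid elongase, rose by 1.22 ± 0.27 (adjusted p = 0.00342) and Me1, the malic enzyme, by 0.40 ± 0.13 (adjusted p = 0.0291). The call of Me1 held in 8 of 16 alternatives. It was lost under upper-quartile and total-count scaling (adjusted p = 0.213 and 0.623), with no filter (0.0527), with the replicate block (0.0532) and without naive replicate 1, 2 or 3 or cold-ischemia replicate 2 (0.129, 0.0945, 0.0515 and 0.0515). Scd1 had 0.64 ± 0.37 (adjusted p = 0.184) and Fads1 -0.28 ± 0.16 (adjusted p = 0.186), and Fads1 was called lower under upper-quartile and total-count scaling (adjusted p = 0.0349 and 0.0118). Of 8 genes of the isoprenoid branch, which leaves the route at farnesyl diphosphate, 4 were called higher and 2 lower, with a median of 0.23. Nus1, a subunit of the dolichol-making enzyme, rose by 1.19 ± 0.17 (adjusted p = 0.000215), and Pdss1, of ubiquinone synthesis, by 1.05 ± 0.30 (adjusted p = 0.0153). Ggps1 rose by 0.49 ± 0.14 (adjusted p = 0.0171). The farnesyltransferase subunit gene Fnta fell by 0.36 (adjusted p = 0.0157) and Dhdds, the partner of Nus1, by 0.37 (adjusted p = 0.0338). The call of Pdss1 was lost under total-count scaling (adjusted p = 0.055) and without naive replicate 1 or 3 (0.0539 and 0.0556). That of Ggps1 was lost under upper-quartile and total-count scaling (0.109 and 0.33) and without naive replicate 1 or 2 (0.0536 and 0.097). Fnta lost its call without naive replicate 2 or 3 or both disputed libraries (0.0768, 0.0734 and 0.0592). Dhdds lost its call under RLE scaling (0.0522) and without naive replicate 2 or 3, cold-ischemia replicate 1 or shock replicate 3 (0.167, 0.0783, 0.0659 and 0.0679).

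**Figure D5:**
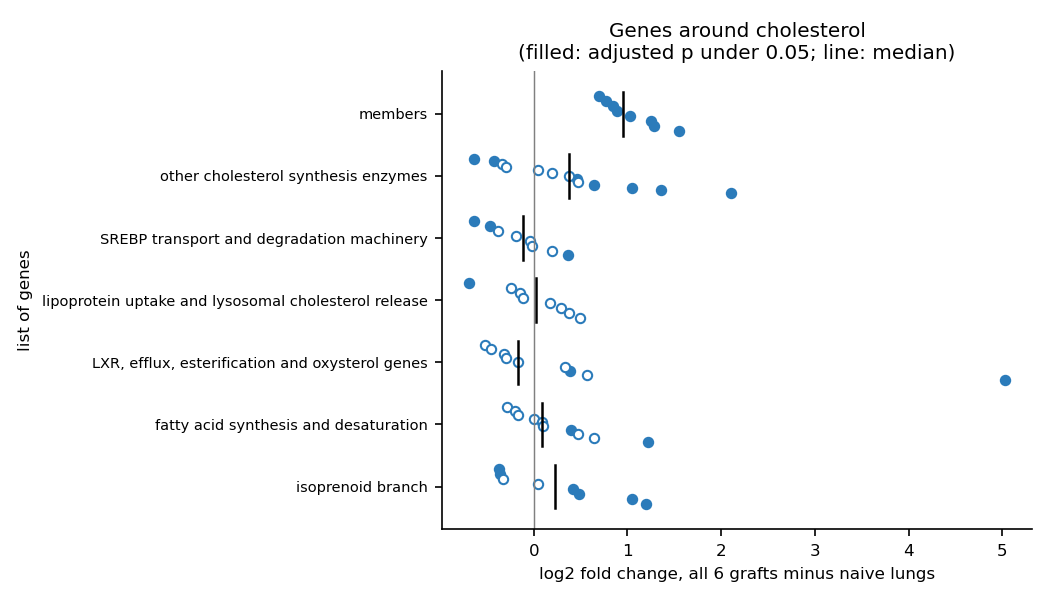
Log2 fold change of all 6 grafts against naive lungs (horizontal axis) for the 8 genes and 6 lists of related genes (rows). Each point is 1 gene, filled where it passed, and the black line is the median of the list, which is 0.96 for the 8 genes and 0.38 for the other synthesis enzymes; Ch25h is the point at 5.03.

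RNA of cell type markers also differed between groups, and in whole lung fewer cells of a type and less RNA per cell cannot be told apart. The background of calls was again 22.1% of tested genes higher and 18.7% lower. Neutrophil markers were called higher in grafts for 8 of 8, with a summed level of 49.8 to 79.3 CPM in naive lungs and 974 to 2880 CPM in grafts. The 8 cholesterol genes summed to 457 to 515 CPM in naive lungs and 809 to 1073 CPM in grafts. Neutrophil sums were 974, 1129 and 1901 CPM in the cold-ischemia grafts and 2552, 2880 and 1473 CPM in the shock grafts. Those of the 8 were 971, 1013 and 1073 CPM and 1042, 809 and 886 CPM in the same order. Alveolar type 2 markers were called higher for 0 of 8 and lower for 2, with sums of 24120 to 26710 CPM in naive lungs and 18770 to 26730 CPM in grafts. Alveolar macrophage markers were called higher for 2 of 8 and lower for none, and monocyte markers higher for 3 and lower for 2 of 8. Mesothelial markers were called lower for 7 of 8 and higher for 1, Krt19. The mesothelial sums were nonetheless not lower, at 450 to 502 CPM in naive lungs and 466 to 570 CPM in grafts. Endothelial markers were called lower for 2 and higher for 1 of 8. Alveolar type 1 markers were called higher for 1 of 8.

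Adipocyte markers were called lower for 6 of 6 tested, with sums of 34.3 to 251 CPM in naive lungs and 7.47 to 26.9 CPM in grafts. Lep and Ucp1 had too few reads to be tested, and Ucp1 had 0 reads in the naive lungs. The part of these cell types in the changes of the cholesterol genes was not tested.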

How the data were processed

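RNA of mouse left lungs was sequenced in 9 libraries on an Illumina NovaSeq after library preparation with a NEBNext Ultra II kit, per the labels' protocols. The submitters' processing notes name STAR, HTSeq, DESeq2, edgeR, STAR-Fusion and mm10, without versions or roles. The authors deposited 3 tables of 6 libraries each, with raw read counts per gene and FPKM, and with their own log2 fold changes and p-values. Repeated count columns of a library held the same values (0 differences in 9 repeats), and the tables were joined to 23944 genes. Groups were taken from the sample titles. Counts were filtered with filterByExpr, scaled by TMM and tested with edgeR 4.0.16 (R 4.3.3) quasi-likelihood tests with Benjamini-Hochberg adjustment over 15834 genes. Means over grafts came from a fit of grafts against naive lungs. CPM printed here are TMM-scaled counts without a prior count, and profiles used log2 CPM with a prior count of 2. DESeq2 1.42.0, other scalings, no filter, a replicate block, other groupings and leaving out each library were alternatives. On simulated counts of cold-ischemia grafts and naive lungs, the fit called 37% of genes changed by 1 on the log2 scale. It called 85% of those changed by 2, so changes of the smaller size could go uncalled there. Only 200 of the 15834 genes were changed in that setting, whereas 30.6% were called in the real cold-ischemia grafts. The share of changes called when as many genes differ as in the real libraries was not tested. The 8 genes and the lists were chosen with earlier results of these data known. All 8 were to be named, with up to 4 genes a list by smallest adjusted p and any called against most of the list. Some genes of the lists and 1 nearest gene are not reported here, and list counts leave them out. Of the deposited gene identifiers, 23673 were found in GENCODE M21, and 23645 overlapped their deposited place there, which served to check the genome build. Overlapping genes were looked up by the deposited gene places.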

Additional observations from a re-analysis of the deposited data

Results flagged for a closer look

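In 2 of the 8 genes, checked for a library far from the others, 1 of the 6 grafts stood apart by Dixon's test. For Idi1 the gap from shock replicate 1 (76.5 CPM) to the next graft was 0.806 of the range of the grafts. For Fdft1 the gap from cold-ischemia replicate 3 (74.4 CPM) to the next graft was 0.712 of the range. Chance flags about 1 in 20 groups. Fdft1 was called higher in all grafts, and Idi1 in both graft groups, in every setting that left out 1 library.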

How the results depend on the processing

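Under all 18 alternatives, 8 of 8 genes were called higher in cold-ischemia grafts. In shock grafts 7 of 8 were called, except 6 under upper-quartile and total-count scaling and 8 without shock replicate 2. Total-count scaling was chosen after seeing the data. Under upper-quartile and total-count scaling the share of called genes that were higher in all grafts fell from 54.2% to 35.6% and 27.4%, from 57.1% to 39.3% and 29.2% in cold-ischemia grafts, and from 55.1% to 36.5% and 28.8% in shock grafts. Shock against cold-ischemia calls numbered 8 with DESeq2, 124 by the tables' grouping and 39 without both disputed libraries. The near-zero difference of Sqle turned sign under upper-quartile (-0.0377) and total-count scaling (-0.0362), no filter (-0.00305), the replicate block (-0.00819), only the groups compared (-0.00853), the tables' grouping (-0.000904) and without both disputed libraries (-0.000315). Hmgcs1 (0.0515), Lss (0.0776) and Cyp51 (0.00765) turned sign under the tables' grouping. Leaving out 1 replicate gave Sqle -0.0466 to 0.0668 and Idi1 -0.0836 to 0.356, and in all grafts Srebf1 -0.0784 to 0.0342 and Scap -0.1 to 0.00446. Srebf1 was 0.00631 with DESeq2 and 0.00625 with RLE scaling, and Npc1 -0.0267 with total-count scaling. The cause was not tested. Replicate numbers did not pair the libraries (correlations -0.394 to 0.096 over 9 pairs), and 1 library correlated best with its own number. With the replicate block, calls numbered 4296 in cold-ischemia, 5801 in shock and 5950 in all grafts, 0 between graft groups, and 8, 7, 8 and 0 of the 8 genes. Of 1040 alternative values of single genes, 928 kept direction and side of the threshold, 67 lost and 22 gained a call, and 23 turned sign. Intervals cover the spread of few libraries.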

Other observations

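Scd1 and Acaca were the 2 of 10 genes of fatty acid synthesis and desaturation called between the graft groups of the deposited tables. Of all tested genes, 0.783% were called between those groups. None of the 10 was called between the groups of the titles. Scd1, which puts the double bond into saturated fatty acids, had 1185, 2939 and 1644 CPM in cold-ischemia replicates 1 to 3 and 3452, 3961 and 1659 CPM in shock replicates 1 to 3. Acaca, which makes malonyl-CoA, had 78.8, 163 and 89.9 CPM in the former and 204, 136 and 69.0 CPM in the latter. For both genes the 3 highest grafts were those that the tables call shock grafts. Under that grouping, shock minus cold-ischemia was 1.21 ± 0.22 on the log2 scale for Scd1 (adjusted p = 0.0406), 1.08 ± 0.16 for Acaca (adjusted p = 0.0188) and 0.67 ± 0.13 for Abcg1 (adjusted p = 0.047), with edgeR. Without both disputed libraries their adjusted p were 0.0771, 0.0731 and 0.117. Calls under the tables' grouping were not confined to lipid genes. Among the cell type markers, Fabp1 (-2.12 ± 0.32, adjusted p = 0.0199) and Msln (2.68 ± 0.41, adjusted p = 0.0205) were also called. The 8 cholesterol genes had a median difference of 0.003 under the tables' grouping, and none was called.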
